A study of Homo sapiens with 6 samples.

Results

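Aminoacyl-tRNA synthetases are the enzymes that load amino acids onto their tRNAs, and their mRNAs were examined in SW1990 cells, a human pancreatic cancer line, with and without an shRNA against LRRC8A. The genes were taken by symbol from the deposited table: 19 synthetases of the cytosol and 16 of the mitochondrion, 35 of 20345 genes in all. With less LRRC8A, 27 of the 35 synthetases (77.1%, against 49.8% of all tested genes) had a negative log2 fold change, by small amounts. Only GARS1, the glycyl-tRNA synthetase, fell past the threshold of the test (2.86% called, against 4.35% of all tested genes). The GARS1 call held in 1 of 6 fits with a library left out. The median log2 fold change was -0.09 for the cytosolic and for the mitochondrial enzymes, but the cytosolic one was -0.04 without control replicate 3 or without LRRC8A shRNA replicate 1 and -0.05 without control replicate 2, where the mitochondrial one was -0.09, -0.08 and -0.10.

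RNA was sequenced from 3 control libraries, whose cells carried a non-targeting shRNA, and from 3 libraries whose cells carried an shRNA against LRRC8A. LRRC8A is the essential subunit of the volume-regulated anion channel, which lets chloride, amino acids and other small organic osmolytes out of swollen cells. Both groups shared the lentiviral pLKO.1 vector, puromycin selection into stable lines, and growth in DMEM with serum. The labels name 1 hairpin against LRRC8A and 1 batch, and do not say whether the libraries of a group came from separate transductions, so p-values measure only the spread between these libraries.

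A synthetase recognises its amino acid and the matching tRNA and joins them, and the charged tRNA is what the ribosome uses. Cytosolic protein synthesis and the ribosomes inside mitochondria use different sets of these enzymes, all encoded in the nucleus, and the mitochondrial enzymes carry the number 2 in their symbols. GARS1 and KARS1 are exceptions, since each makes both forms from 1 gene. Part of the cytosolic enzymes sit in a multisynthetase complex held together by the scaffold proteins AIMP1, AIMP2 and EEF1E1. When uncharged tRNA builds up, the kinase GCN2 (gene EIF2AK4) phosphorylates eIF2alpha, the transcription factor ATF4 is made, and ATF4 raises amino acid transporters, amino acid synthesis enzymes and many cytosolic synthetases by binding C/EBP-ATF response elements.

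The core of that element, TGATGCAA on either strand, was searched in RefSeq promoter windows of GRCh38.p14 that run from 250 bases before to 50 bases after a gene's start. It was in 304 of 35116 windows (0.866%), or 295 of 27305 genes (1.08%), and in 6 of the 30 synthetase genes that matched a window, namely 6 of 16 cytosolic and 0 of 14 mitochondrial genes. LARS1, VARS1, YARS1, AARS2 and VARS2 had no window to search, and genes without this exact match can hold other forms of the element. These 6 sites are shown as exact matches of its core. Each is written on the gene's strand, 5′ to 3′, with 10 bases on each side and the motif in capitals, and TTGCATCA is the motif on the other strand.
AARS1: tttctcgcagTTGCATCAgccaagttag
CARS1: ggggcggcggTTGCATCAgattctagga
IARS1: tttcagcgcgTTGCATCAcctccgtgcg
MARS1: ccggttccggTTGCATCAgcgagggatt
NARS1: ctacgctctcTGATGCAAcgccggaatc
TARS1: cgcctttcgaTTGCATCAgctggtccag
The windows lie at chr16:70289676-70289703 for AARS1 (minus strand), chr11:3057408-3057435 for CARS1 (minus), chr9:92293693-92293720 for IARS1 (minus), chr12:57488054-57488081 for MARS1 (plus), chr18:57621805-57621832 for NARS1 (minus) and chr5:33440957-33440984 for TARS1 (plus). Distances are counted from the start that RefSeq gives. In all 6 genes this start lies within the GENCODE gene bounds, some of which are printed further on, and by the most in MARS1. The motif begins 187 bases before the start in AARS1, in IARS1 13 bases before, in MARS1 4 and in CARS1 2 bases before. In TARS1 it begins 2 and in NARS1 14 bases after the start. A looser form, TGATGNAA, which includes the first, was in 3.62% of windows (4.46% of genes) and added GARS1 and YARS2. A match describes the letters of these windows and not a bound site.

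The libraries held 37052641 to 42937612 counts, and 15385 to 15593 genes were detected in each. mRNAs encoded by the mitochondrial genome took 4.55% to 5.53% of the counts in 5 libraries and 6.53% in LRRC8A shRNA replicate 3. LRRC8A stood at 81.2, 73.8 and 71.7 CPM (library-scaled counts, with TMM factors) in the control libraries and at 40.9, 37.8 and 41.6 CPM in the LRRC8A shRNA libraries, without overlap. Its log2 fold change was -0.92 (SE 0.06, adjusted p = 1.46e-08). The epithelial markers EPCAM, KRT8, KRT18, KRT19 and CDH1 were all present. KRT8 and KRT18, the simple epithelial keratins, had TPM (transcript shares scaled for length and depth) of 7190 to 7730 and 5750 to 6050 in controls against 5870 to 6470 and 4350 to 4880 with LRRC8A shRNA. The leukocyte, endothelial and endocrine markers in the table were at most 0.512 TPM in every library. Of the fibroblast markers, COL1A2 and DCN were at 0, PDGFRB was at most 0.427 TPM and COL1A1 was at 1.14 to 1.78 TPM. Of the exocrine markers, CELA3A was at 0 and CPA1 reached at most 0.0922 TPM, while PRSS1, a trypsinogen with near-identical copies and so of uncertain count, was at 34.9 to 41.9 TPM in controls and 22.7 to 32.9 TPM with LRRC8A shRNA. The part of these marker differences in the synthetase values was not tested.

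All 35 synthetases passed the filter on low counts, with 359 counts for SARS2 as the lowest value in any library and 28691 for WARS1 as the highest. By the quasi-likelihood test of edgeR with Benjamini-Hochberg adjustment over 13551 genes, 1 of the 35 (2.86%) passed an adjusted p of 0.05, and it was lower. Among all tested genes 590 (4.35%) passed, 350 lower (2.58%) and 240 higher (1.77%), so the share of synthetases called was not above the background. The values were small and mostly to the negative side. Their median log2 fold change was -0.09, against 0.00 over all tested genes, and 77.1% of them were negative, against 49.8% of all genes. At an unadjusted p of 0.05, 13 synthetases (37.1%) were lower and 1 (2.86%) higher, where 9.62% of all genes were lower and 8.65% higher. The CPM of the groups did not overlap for 11 synthetases that were lower (31.4%) and 1 that was higher (2.86%), against 12.2% and 11.4% of all genes. These shares are descriptions of a named list and carry no test of the list. In bulk RNA, fewer cells of a type and less RNA per cell cannot be told apart. Exons of 16 of the 35 synthetases overlap those of a gene on the opposite strand, and HARS1 and HARS2 overlap each other. Exons of 3 (HARS2, SARS2 and VARS2) overlap those of a coding gene on the same strand, and 11 synthetases have named pseudogenes. Reads of these genes could have been shared, and the part of such sharing in their values was not tested.

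The sizes were bounded closely. Every log2 fold change lay between -0.25 (FARS2) and 0.15 (AARS2), with SE between 0.04 and 0.10. The 95% intervals reached at most 1.36-fold lower and 1.23-fold higher for any synthetase, and 1.26-fold lower and 1.12-fold higher for the cytosolic ones.

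**Figure D1:**
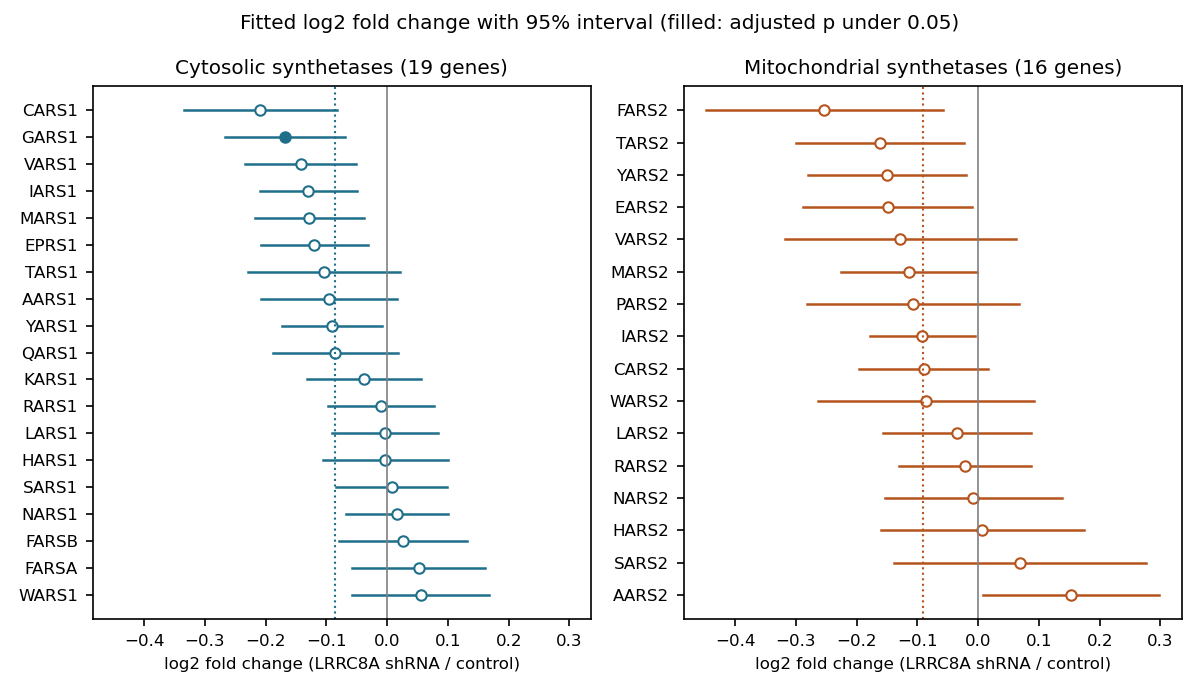
Fitted log2 fold change (LRRC8A shRNA over control, 3 libraries each) of every synthetase on the x axis, with its 95% interval as a line, a filled point for an adjusted p under 0.05 and a dotted line at the median of each panel. Most points lie left of 0 in both panels, the medians are both -0.09, and GARS1 is the filled point.

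GARS1 charges glycine tRNAs in both compartments (ENSG00000106105; GRCh38 in GENCODE 29, chromosome 7, 30594681 to 30634033, plus strand). It stood at 268, 287 and 269 CPM in control replicates 1 to 3 and at 228, 254 and 251 CPM in LRRC8A shRNA replicates 1 to 3. All 3 LRRC8A shRNA libraries were below all 3 controls, and replicate 1 was the lowest. GARS1 fell by 0.17 on the log2 scale (SE 0.05, adjusted p = 0.0486), which is a change of -11.0%. The call rested on the full set of libraries. With each library left out in turn it passed in 1 of 6 fits, the fit without LRRC8A shRNA replicate 2, and the adjusted p was 0.0945, 0.212 and 0.0975 without control replicates 1, 2 and 3, and 0.211 and 0.0589 without LRRC8A shRNA replicates 1 and 3. With limma on log2(TPM + 1) the adjusted p was 0.280. Its exons overlap those of the divergent transcript GARS-DT on the other strand, and a pseudogene, GARSP1, exists, so reads could have been shared between them. KARS1, the other gene that makes both forms (lysine), had a log2 fold change of -0.04 (SE 0.04, adjusted p = 0.710).

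The multisynthetase complex holds 7 of the synthetases: EPRS1, IARS1, KARS1, LARS1, MARS1, QARS1 and RARS1. None passed the adjusted threshold, all 7 log2 fold changes were negative, between -0.13 and -0.00, and their median was -0.09. IARS1, the isoleucyl enzyme (chromosome 9, 92210207 to 92293756), stood at 495.0, 494.9 and 494.9 CPM in controls and at 459, 453 and 446 CPM with LRRC8A shRNA. The controls were nearly equal to each other and the LRRC8A shRNA libraries were all below them, with a log2 fold change of -0.13 (SE 0.04, adjusted p = 0.0614). MARS1, the methionyl enzyme (chromosome 12, 57475445 to 57517569), stood at 267, 279 and 272 CPM in controls and at 239, 261 and 247 CPM with LRRC8A shRNA. The groups did not overlap, and the log2 fold change was -0.13 (SE 0.04, adjusted p = 0.101). MARS1 shares exon sequence with DDIT3 and ARHGAP9 on the opposite strand, and the strand setting of the counting is not given in the sources used here. EPRS1, which charges both glutamate and proline tRNAs, stood at 309, 309 and 330 CPM in controls and at 285, 286 and 300.4 CPM with LRRC8A shRNA. Its groups too did not overlap (log2 fold change -0.12, SE 0.04, adjusted p = 0.123). For QARS1, the glutaminyl enzyme, the log2 fold change was -0.09 (adjusted p = 0.380), and for LARS1 (leucine) and RARS1 (arginine) it was -0.00 and -0.01.

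Outside the complex, 7 of 12 cytosolic synthetases had a negative log2 fold change and their median was -0.05. CARS1, the cysteinyl enzyme (chromosome 11, 3000922 to 3057613), stood at 61.9, 70.0 and 72.4 CPM in controls and at 58.7, 56.1 and 61.9 CPM with LRRC8A shRNA. Control replicate 1 was level with LRRC8A shRNA replicate 3, so the groups touched. The log2 fold change of -0.21 was the lowest of the cytosolic genes (SE 0.06, adjusted p = 0.0559). VARS1, the valyl enzyme (chromosome 6, 31777518 to 31795953), was at 129, 128 and 124 CPM in controls and at 112, 116 and 116 CPM with LRRC8A shRNA. No LRRC8A shRNA library reached a control, and the log2 fold change was -0.14 (SE 0.04, adjusted p = 0.0711). YARS1, the tyrosyl enzyme, was at 283, 292 and 293 CPM against 267, 276 and 272 CPM, again without overlap (log2 fold change -0.09, SE 0.04, adjusted p = 0.217). AARS1 (alanine) and TARS1 (threonine) had log2 fold changes of -0.10 each, with adjusted p of 0.363 and 0.376, and their groups overlapped. In 5 further genes the value was positive. These were WARS1, the tryptophanyl enzyme that interferons induce (0.06, adjusted p = 0.648), the subunits FARSA and FARSB of the phenylalanyl enzyme (0.05 and 0.03), NARS1 (asparagine, 0.02) and SARS1 (serine, 0.01). HARS1, the histidyl enzyme, was at -0.00 from counts and at -0.11 with limma on log2(TPM + 1) (adjusted p = 0.986 and 0.342). WARS1 varied among the LRRC8A shRNA libraries, at 658, 691 and 582 CPM, around controls at 633, 609 and 616 CPM.

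Among the mitochondrial enzymes, 0 of 16 passed the adjusted threshold by edgeR, where 4.35% of all genes did. At an unadjusted p of 0.05, 6 were lower and 1 higher (37.5% and 6.25%, against 9.62% and 8.65% of all genes), and 13 of 16 log2 fold changes were negative (81.3%, against 73.7% of the cytosolic genes). FARS2 charges phenylalanine as a single chain, unlike its cytosolic counterpart (chromosome 6, 5261044 to 5829192, plus strand). It stood at 11.8, 11.9 and 11.5 CPM in controls and at 10.0, 9.74 and 9.81 CPM with LRRC8A shRNA. Both groups were tight and apart, and the log2 fold change was -0.25 (SE 0.09, adjusted p = 0.138). YARS2, the tyrosyl enzyme, was at 44.1, 43.4 and 43.4 CPM in controls and at 41.9, 39.7 and 36.4 CPM with LRRC8A shRNA. The second group was lower and more spread (log2 fold change -0.15, SE 0.06, adjusted p = 0.190). TARS2, the threonyl enzyme, was at 28.97, 26.0 and 28.7 CPM against 24.96, 24.8 and 25.1 CPM, without overlap (log2 fold change -0.16, SE 0.07, adjusted p = 0.187).

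IARS2, the isoleucyl enzyme and the most abundant of the mitochondrial group, was at 185, 187 and 192 CPM in controls and at 177, 172 and 180.3 CPM with LRRC8A shRNA. The groups were apart with a log2 fold change of -0.09 (SE 0.04, adjusted p = 0.242). MARS2, the methionyl enzyme, had -0.11 (SE 0.05, adjusted p = 0.263), and its highest LRRC8A shRNA library, at 53.7 CPM, was just under its lowest control, also 53.7 CPM. EARS2, the glutamyl enzyme, had -0.15 (SE 0.07, adjusted p = 0.235), and its groups overlapped. AARS2, the alanyl enzyme (chromosome 6, 44299654 to 44313326), had a positive value. Its controls were at 26.6, 24.6 and 26.1 CPM and the LRRC8A shRNA libraries at 28.6, 30.8 and 26.6 CPM. The highest control was only just below the lowest LRRC8A shRNA library, and the log2 fold change of 0.15 did not pass (SE 0.07, adjusted p = 0.241). AARS2 shares exon sequence with TMEM151B on the opposite strand. The other 9 mitochondrial genes lay between -0.13 (VARS2) and 0.07 (SARS2), with adjusted p from 0.368 for CARS2 to 0.979 for HARS2. VARS2 passed in 1 fit, without LRRC8A shRNA replicate 3 (adjusted p = 0.0450), a library that at 42.1 CPM was above all 3 controls while the other LRRC8A shRNA libraries, at 33.7 and 32.3 CPM, were below them.

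**Figure D2:**
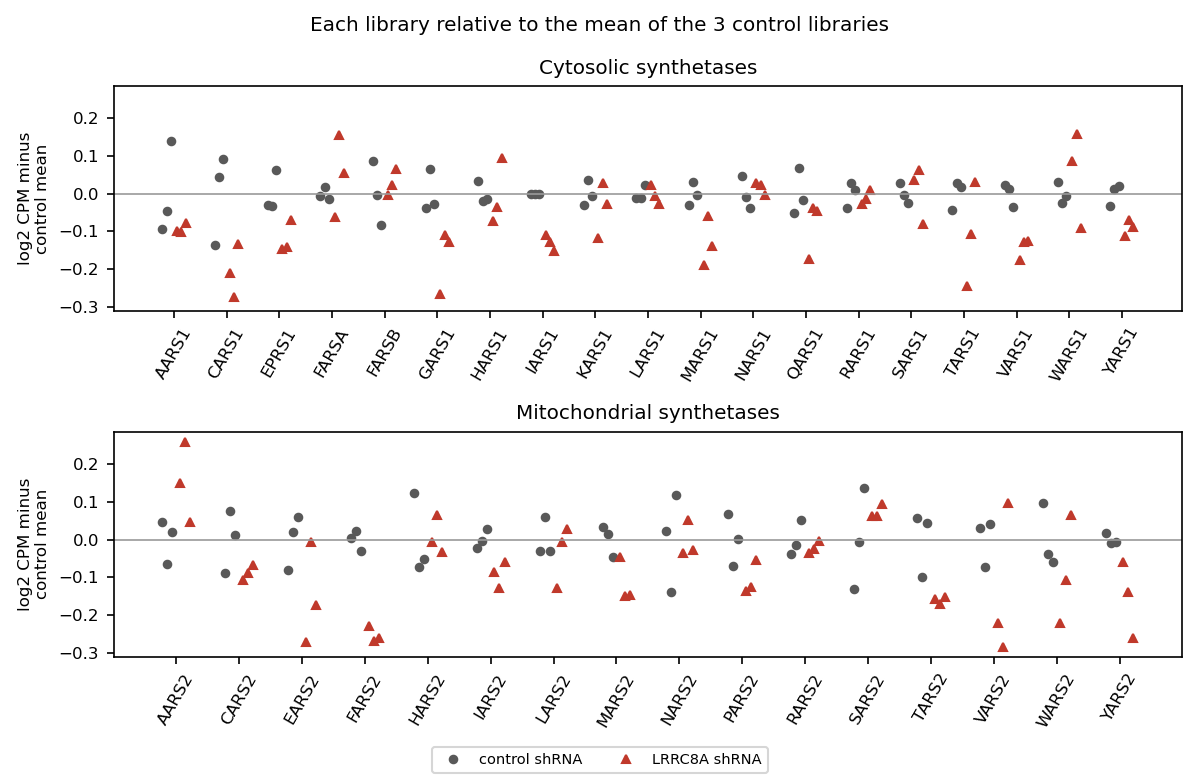
Log2 CPM of each library minus the mean of the 3 control libraries on the y axis, for every cytosolic (top) and mitochondrial (bottom) synthetase, with circles for control and triangles for LRRC8A shRNA libraries. For GARS1, IARS1, EPRS1, MARS1, VARS1 and YARS1 above, and FARS2, IARS2, MARS2, TARS2 and YARS2 below, all triangles are under all circles.

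The same direction was seen library by library. The median over the 19 cytosolic genes, as log2 CPM relative to the control mean, was -0.03, 0.01 and -0.01 in control replicates 1 to 3 and -0.11, -0.04 and -0.07 in LRRC8A shRNA replicates 1 to 3. The median over the 16 mitochondrial genes was 0.02, -0.01 and 0.02 in controls and -0.10, -0.10 and -0.04 with LRRC8A shRNA. In both sets the LRRC8A shRNA libraries were below the controls. For the cytosolic set the margin was narrow, with -0.0375 in LRRC8A shRNA replicate 2 and -0.0288 in control replicate 1. The pooled SD of the cytosolic library median was 0.0292. The median of all tested genes was 0.00 in every library, a value that the TMM scaling and the centring on the control mean tend to give.

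Summed transcript levels differed by a few percent. The summed TPM of the cytosolic synthetases was 2965, 2968 and 2950.0 in controls and 2883, 2965 and 2819 with LRRC8A shRNA, so that replicate 2 lay within the control range. The group means were 2961 ± 9.45 and 2889 ± 72.7 (SD, n = 3), a difference of -2.43%. For the mitochondrial synthetases the sum was 498, 501 and 506 in controls and 483, 480.1 and 475 with LRRC8A shRNA. Here the groups did not overlap, with means of 502 ± 4.004 and 479 ± 4.06 (SD, n = 3), a difference of -4.45%. The cytosolic sum was 5.83 to 5.96 times the mitochondrial one in controls and 5.94 to 6.18 times with LRRC8A shRNA, and these ranges overlap.

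Synthetases fall into structural classes that the choice of genes did not use. The counts by class and by promoter motif below are descriptions, and no test was run on them. Of the 18 class I enzymes 17 had a negative log2 fold change, with WARS1 as the exception, and the median was -0.09. Of the 16 class II enzymes 9 were negative and the median was -0.01, although GARS1, the gene that passed, is of class II. EPRS1 holds an active site of each class and was left out of both. Of the 6 genes with the TGATGCAA sites shown above, 5 were negative, with a median of -0.12, and 0 passed. NARS1 was the only positive one, with a value near 0 (0.02, SE 0.04, edgeR adjusted p = 0.88). In the 10 cytosolic genes with a window and without TGATGCAA, 6 were negative, with a median of -0.01, and GARS1, which holds the looser form, passed. Another motif searched in the same windows, CACGTG, was in 7.26% of all windows (8.77% of genes). It was in 4 of the 30 synthetase genes with a window, namely IARS1 (1 of 16 cytosolic) and CARS2, EARS2 and MARS2 (3 of 14 mitochondrial). These 4 genes were all negative, with a median of -0.12, and 0 passed. IARS1 holds both motifs. The part of either motif in these values was not tested.

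Levels differed far more between synthetases than between groups. In TPM, WARS1 had the highest control mean at 435 ± 9.42 (SD, n = 3), followed by SARS1 at 336 ± 7.38 and IARS1 at 215 ± 1.86. NARS1 at 205 ± 5.71, GARS1 at 203 ± 8.64 and KARS1 at 201 ± 5.36 came next and did not differ beyond their spread. The lowest was the mitochondrial prolyl enzyme PARS2 at 12.9 ± 0.569, and going up from it through AARS2, SARS2, WARS2 and FARS2, at 12.9 to 14.0 TPM, no gene differed from the next beyond their summed SDs. Over the whole order, 17 of 34 neighbouring genes were further apart than their summed SDs. Cytosolic genes had a median of 144 TPM (47.2 to 435) and mitochondrial genes one of 21.6 TPM (12.9 to 102). The sets overlapped, since IARS2 at 102 ± 1.62 TPM ranked 14 of 35, above 6 cytosolic genes. The TPM of TARS1 was spread (178, 128 and 124 in controls) although its CPM was not (265, 279 and 276), so its level in TPM is less certain.

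Each mitochondrial gene was then set beside the cytosolic gene for the same amino acid, in 16 pairs, with EPRS1 used for both EARS2 and PARS2 and FARSA for FARS2. The cytosolic mRNA was the more abundant in 15 of 16 pairs, with a median TPM ratio of 5.29 in controls. The ratio was largest for tryptophan, at 31.7 between WARS1 and WARS2, and for serine, at 25.1 between SARS1 and SARS2. Cysteine was the exception, with a CARS1 to CARS2 ratio of 0.634, and isoleucine had 2.12.

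**Figure D3:**
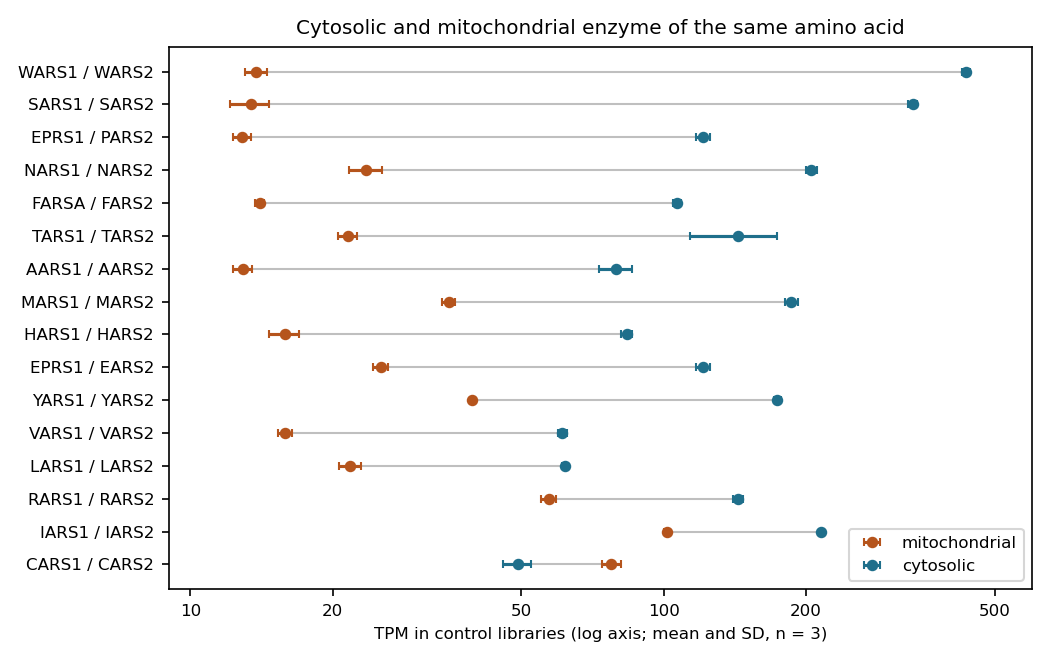
Mean TPM in the 3 control libraries (x axis, log scale; error bars are SD) of the mitochondrial and the cytosolic synthetase for the same amino acid, joined by a line and ordered by their ratio. The cytosolic gene lies to the right in 15 of 16 pairs, and the exception is CARS1 with CARS2 at the bottom.

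The balance within a pair, as the log2 ratio of cytosolic to mitochondrial CPM within a library, had a higher mean in 8 pairs and a lower one in 8 with LRRC8A shRNA, and none of these shifts passed a test. For FARSA over FARS2 the ratio was 3.08 ± 0.01 in controls and 3.39 ± 0.13 with LRRC8A shRNA (SD, n = 3), a difference of 0.30 without overlap (exact two-sided permutation p = 0.1, adjusted over 16 pairs 0.8). CARS1 over CARS2 was at -0.11 ± 0.07 and -0.22 ± 0.06 (SD, n = 3), a difference of -0.12 without overlap and with the same exact p. AARS1 over AARS2 had the lowest difference, -0.24, with overlap (exact permutation p = 0.2). The other 13 pairs lay between these values, and with 3 against 3 libraries the exact test cannot give a p below 0.1.

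Other genes of tRNA charging were counted in the same fit. Of the 3 scaffolds of the multisynthetase complex none passed, and AIMP2 had a log2 fold change of -0.14 (SE 0.05, adjusted p = 0.162), AIMP1 one of 0.03 and EEF1E1 one of 0.01. Of 13 genes for tRNA export, 3′ end completion, editing, selenocysteine charging and mitochondrial transamidation none passed, and their median was -0.03. TRNT1, which adds the CCA end to tRNAs, had -0.17 (adjusted p = 0.139). Among 9 cytosolic elongation factors none passed and the median was -0.03, with EEF1D at -0.12 (adjusted p = 0.0983) and EIF5A at -0.10 (adjusted p = 0.205).

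Of 11 tested mitochondrial translation factors 1 fell and 1 rose (all genes: 2.58% lower and 1.77% higher), with a median of -0.03. TUFM, the mitochondrial elongation factor that brings charged tRNA to the ribosome, stood at 277, 291 and 291 CPM in controls and at 247, 259 and 250.3 CPM with LRRC8A shRNA. It fell by 0.18 without overlap of the groups (log2 scale, SE 0.04, adjusted p = 0.0145). MTRFR, a factor that rescues stalled mitochondrial ribosomes, stood at 25.8, 25.2 and 27.8 CPM in controls and at 30.7, 29.9 and 32.8 CPM with LRRC8A shRNA. It rose by 0.25, also without overlap (log2 scale, SE 0.07, adjusted p = 0.0379). TUFM lost its call without control replicate 2, control replicate 3 or LRRC8A shRNA replicate 1 (largest adjusted p of these 0.0769). MTRFR lost it without control replicate 1 or 2 or LRRC8A shRNA replicate 1 or 3 (largest of these 0.178). In the 3 limma fits on TPM neither passed, with adjusted p of 0.146 to 0.200 for TUFM and 0.169 to 0.253 for MTRFR.

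Of the upstream genes of the amino acid response, ATF4 stood at 417, 444 and 488 CPM in controls and at 414, 457 and 486 CPM with LRRC8A shRNA, with a log2 fold change of 0.01 (SE 0.07, adjusted p = 0.969). ATF4 is mainly set by translation, which mRNA counts do not measure. Of 16 tested eIF2alpha kinases and amino acid sensors 1 rose (6.25%, against 4.35% of all genes called) and none fell, and their median was -0.01. RRAGC, a Rag GTPase that recruits mTORC1 to lysosomes when amino acids are present, stood at 56.9, 51.0 and 55.3 CPM in controls and at 68.5, 67.0 and 64.7 CPM with LRRC8A shRNA. It rose by 0.29 without overlap (log2 scale, SE 0.05, adjusted p = 0.00317).

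Among 32 tested ATF4 targets that are not synthetases, 5 fell and 1 rose, which is 18.8% called against 4.35% of all genes, and 26 were not called. The list was chosen with earlier results of these data known, so this share is a description and carries no test of the list. Their median log2 fold change was -0.05, and 19 of 32 were negative. Of the 6 called genes, 4 encode amino acid transporters. SLC1A5, the glutamine carrier ASCT2, stood at 409.9, 441 and 421 CPM in controls and at 327, 349 and 358 CPM with LRRC8A shRNA, and fell by 0.30 (log2 scale, SE 0.04, adjusted p = 0.000548). SLC7A5, the large neutral amino acid transporter LAT1, fell by 0.22 (adjusted p = 0.0122), and SLC7A1, a cationic amino acid transporter, fell by 0.205 (adjusted p = 0.0197). In the other direction SLC38A2, the neutral amino acid transporter SNAT2, rose by 0.19 (adjusted p = 0.0460). The remaining members that fell were ATF3, a stress transcription factor (-0.29, adjusted p = 0.0103), and ALDH18A1, which makes a proline precursor (-0.17, adjusted p = 0.0368). ASNS, the asparagine synthetase often used as a readout of ATF4, had -0.09 (adjusted p = 0.341).

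SLC1A5 and RRAGC passed in 6 of 6 fits with a library left out, and ATF3 in 5, losing its call without control replicate 3. SLC7A5 lost it without control replicate 2, control replicate 3 or LRRC8A shRNA replicate 1. ALDH18A1 and SLC38A2 passed only without LRRC8A shRNA replicate 2, and SLC7A1 only without LRRC8A shRNA replicate 3, with largest adjusted p of 0.163, 0.188 and 0.108. In the limma fits on TPM with its filter, SLC1A5, RRAGC and ATF3 passed and ALDH18A1, SLC7A5, SLC7A1 and SLC38A2 did not (adjusted p from 0.114 for SLC7A5 to 0.174 for ALDH18A1). Without that filter none of the 7 passed, with SLC1A5 at 0.0917, ATF3 at 0.104 and RRAGC at 0.107.

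**Figure D4:**
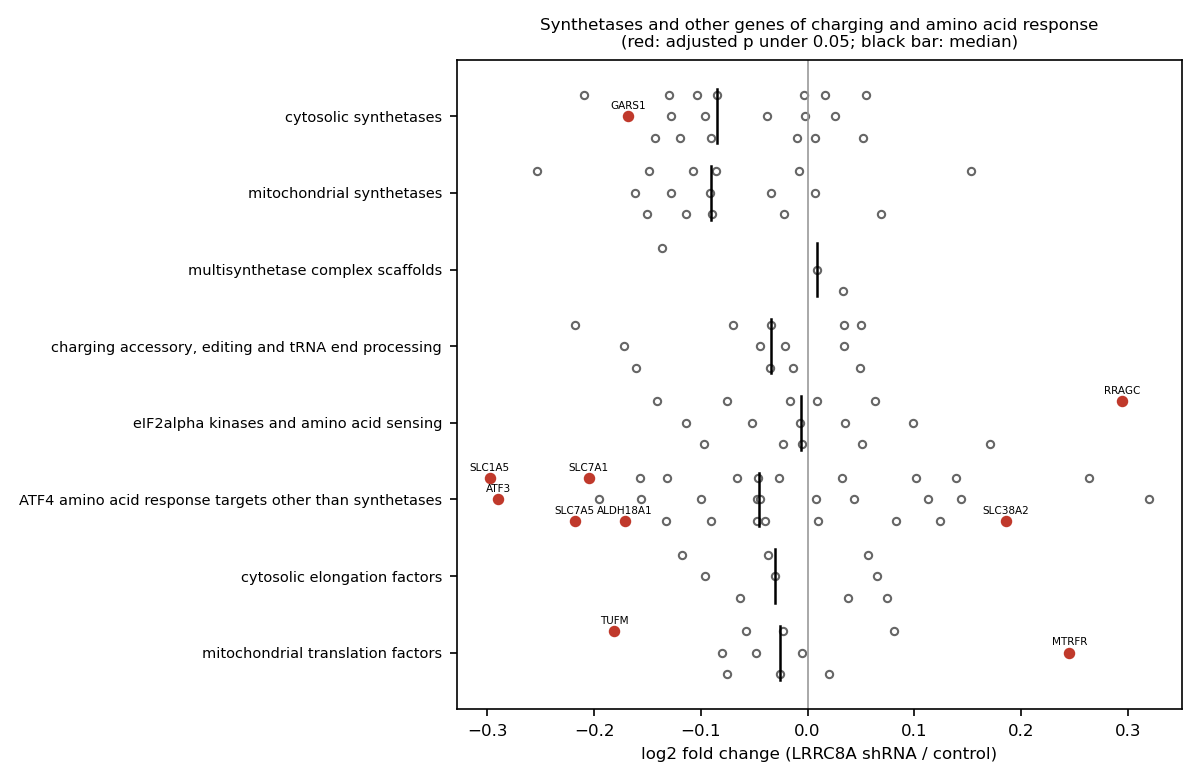
Log2 fold change (LRRC8A shRNA over control) of the synthetases and of the other gene lists on the x axis, 1 point per tested gene, red and named where the adjusted p was under 0.05, with a black bar at each list's median and points spread vertically only for legibility. The synthetase medians of -0.09 lie left of the other lists, whose medians run from -0.05 to 0.01.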

How the data were processed

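The authors deposited 1 table with whole-number read counts per gene, FPKM and TPM for 6 libraries, and FPKM was not used. The submitters' processing notes list StringTie 2.2.3, HISAT2 2.2.1 and fastp 0.23.2 as tools, and GRCh38 beside mm10 as builds, with no role. Neither the counting program nor its use of strand is given in the sources used here. The deposited counts were raw, and the deposited TPM and FPKM were scaled by the authors for length and depth. TPM over the protein-coding genes of the table summed to 935131 to 939556. Positions are from GENCODE 29 (GRCh38), since the table's coordinates equalled it for 100 of 19511 genes.

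The members, gene lists and tests were chosen with earlier results of these data known. Counts were tested with edgeR 4.0.16 (R 4.3.3): filterByExpr, TMM factors, robust quasi-likelihood F-test, two-sided, Benjamini-Hochberg adjustment over all tested genes, threshold 0.05. The code was tested on simulated data. CPM used TMM-scaled library sizes. Pair ratios were compared by exact two-sided permutation tests (scipy 1.17.1). Levels between genes were compared in TPM. Named genes are all members, LRRC8A and, of each other list, every called gene up to 6, or the 2 with the smallest p where none was called; EEF1E1, ATF4 and ASNS were named outside this rule, after their values were seen. A gene that the rule takes is not reported here. As alternatives, the fit was repeated with a replicate block, without each library, with DESeq2 1.42.0, with its size factors, with no filter, and with limma 3.58.1 with a trend on log2(TPM + 1) of genes with at least 1 TPM in at least 3 libraries, on log2(TPM + 0.1) and without that filter. Repeating these fits for the called genes of the other lists was chosen after seeing the data.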

Additional observations from a re-analysis of the deposited data

How the results depend on the processing

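Against 1 cytosolic synthetase called, DESeq2 called 3 (GARS1, IARS1, VARS1), the fit with no low-count filter 2 (CARS1, GARS1), and limma on log2(TPM + 1), on log2(TPM + 0.1) and without a TPM filter 0 each. Of all genes, the main fit called 590, DESeq2 660, the fit with no low-count filter 692, and the limma fits 168, 167 and 15. With each library left out, 0 to 2 cytosolic, 0 to 1 mitochondrial and 246 to 504 of all genes were called, and the cytosolic median ran from -0.1086 to -0.0369. Over all alternatives the mitochondrial median ran from -0.10 to -0.07, and without GARS1 and KARS1 the cytosolic median was -0.09. The GARS1 adjusted p ran from 0.0191 to 0.368 and passed in 5 of 13 alternative fits. With the replicate number as a replicate block, 3 cytosolic synthetases (CARS1, GARS1, IARS1) and 671 of all genes were called. Deviations of same-numbered libraries correlated at 0.0277, -0.0890 and 0.00508, within the range of differently numbered ones (-0.0961 to 0.0861). These values show no sign of pairing, and the labels do not say whether the numbers pair the libraries. Of 455 alternative values of members, 411 kept direction and side of the threshold, 8 lost and 8 gained a call, and 28 changed sign, all in 10 genes with log2 fold changes of at most 0.0516 in size (FARSA). With limma these were LARS1 (0.0272, 0.0276 and 0.0272), RARS1 (0.0123, 0.0124 and 0.0123) and HARS2 (-0.0208, -0.0219 and -0.0208). With a library left out, log2 fold changes ran from -0.0533 to 0.0303 for HARS1, -0.0303 to 0.0015 for RARS1, -0.0317 to 0.0697 for HARS2, -0.0101 to 0.0683 for FARSB, -0.0173 to 0.0124 for LARS1, -0.0215 to 0.0496 for SARS1, -0.0761 to 0.0565 for NARS2, -0.0427 to 0.0094 for RARS2, -0.0666 to 0.0100 for LARS2 and -0.0034 to 0.1060 for FARSA. Differences of the pair ratio ran from -0.1486 to 0.0130 for SARS1 to SARS2, -0.0832 to 0.0305 for HARS1 to HARS2, -0.0278 to 0.0757 for LARS1 to LARS2, -0.0625 to 0.0169 for EPRS1 to PARS2, -0.0158 to 0.1153 for EPRS1 to EARS2, -0.0875 to 0.1018 for VARS1 to VARS2 (0.0114 with TPM), -0.0665 to 0.0490 for MARS1 to MARS2, -0.0571 to 0.0854 for NARS1 to NARS2, -0.0105 to 0.0321 for RARS1 to RARS2 and -0.0121 to 0.1227 for TARS1 to TARS2. The cause of these changes was not tested. The widest SE was that of SARS2 (0.10).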
